A study of Mus musculus with 35 samples.

Results

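The mannose and scavenger receptors of macrophages described here are Mrc1, Clec10a, Cd209a, Msr1, Marco, Cd36, Stab1 and Lyve1, which were taken from the deposited table by name and are 8 of its 21203 genes. RNA of brain tissue around the treatment site was sequenced in 34 male C57BL/6NCrl mice, with 1 library per mouse. Sham mice went through every step but the impact and were not treated (n = 5, of which 2 were collected in week 1 and 3 in week 3). The injured mice had a closed head injury (CHI) and, on day 5 after it, an injection into the left hippocampus of PBS, of naive mesenchymal stromal cells (MSCs) or of MSCs that had been transfected with synthetic IL-4 mRNA (IL-4 MSCs). Tissue was taken at 1 week post injury (1 wpi), 2 days after treatment, or at 3 wpi, 16 days after treatment. There were 5 mice in each of the 6 injured groups, apart from the 4 of PBS at 3 wpi. No injured group was left without an injection, so the levels of PBS mice hold both the injury and the needle. Left cortex is the tissue named in the labels although the injection went into the hippocampus, and the amount of each region in a sample was not measured. Sample titles carry a number that is constant within each injured group and differs between groups. If it marks a cage or batch, which the labels do not say, this cannot be told apart from the group, and p-values measure the spread between these mice.

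These receptors bind and take up material from outside the cell. Mrc1 (CD206, the mannose receptor), Clec10a (a galactose-type lectin) and Cd209a (a relative of DC-SIGN) are C-type lectins that bind sugars on proteins, cells and microbes. Msr1 (scavenger receptor A), Marco (a scavenger receptor that also carries a collagen-like stem) and Cd36 (which binds fatty acids and oxidised lipoproteins) take up modified lipids and debris, Stab1 clears modified proteins and dying cells, and Lyve1 binds hyaluronan. IL-4 acts through its receptor and the transcription factor STAT6, and Mrc1 and Clec10a are widely used in mice as markers of macrophages exposed to IL-4. In the healthy brain Mrc1, Lyve1 and Stab1 are known from the macrophages of the meninges and blood vessels more than from microglia, and Lyve1 and Cd36 are also made by lymphatic and blood vessel endothelium.

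In GRCm38 (GENCODE vM21) Mrc1 (ENSMUSG00000026712) lies on chromosome 2 from 14229392 to 14332057, plus strand, and Stab1 (ENSMUSG00000042286) on chromosome 14 from 31139013 to 31168641, minus strand. Clec10a (ENSMUSG00000000318) lies on chromosome 11 from 70156197 to 70170834, plus strand, and Cd209a (ENSMUSG00000031494) on chromosome 8 from 3743397 to 3748984, minus strand. Msr1 (ENSMUSG00000025044) is on the same chromosome 8 from 39581685 to 39642673, minus strand, and Lyve1 (ENSMUSG00000030787) on chromosome 7 from 110850607 to 110863239, minus strand. Cd36 (ENSMUSG00000002944) lies on chromosome 5 from 17781690 to 17888801 and Marco (ENSMUSG00000026390) on chromosome 1 from 120474538 to 120505024, both on the minus strand. RefSeq promoter windows of 300 bases (GRCm38.p6) were matched for 5 of the 8 genes, Mrc1, Cd209a, Stab1, Cd36 and Marco, and Msr1, Lyve1 and Clec10a are only named. The 250 bases before the RefSeq start are shown for Mrc1 (chr2:14229164-14229413, plus strand), Cd209a (chr8:3748985-3749234, minus strand) and Stab1 (chr14:31168642-31168891, minus strand), because these are the receptors with a matched window that were higher in IL-4 MSC mice than in PBS mice at 1 wpi. For Mrc1 the RefSeq start lies inside the GENCODE gene given above, so the last bases printed overlap that gene. For Cd36 all 250 bases before the RefSeq start (chr5:17835897-17836146, minus strand) lie inside its GENCODE gene, not at the outer end of it. Capitals mark GAGGAA on either strand, a core bound by PU.1, a transcription factor of macrophages.
Mrc1: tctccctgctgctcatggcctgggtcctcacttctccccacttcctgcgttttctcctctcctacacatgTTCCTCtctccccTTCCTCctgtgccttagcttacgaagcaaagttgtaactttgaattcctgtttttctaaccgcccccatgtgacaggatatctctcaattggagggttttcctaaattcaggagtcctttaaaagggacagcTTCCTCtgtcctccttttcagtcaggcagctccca
Cd209a: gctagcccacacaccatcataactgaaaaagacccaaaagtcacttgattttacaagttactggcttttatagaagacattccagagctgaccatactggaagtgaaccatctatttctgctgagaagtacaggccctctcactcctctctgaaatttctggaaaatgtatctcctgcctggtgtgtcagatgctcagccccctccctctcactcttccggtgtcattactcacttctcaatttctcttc
Stab1: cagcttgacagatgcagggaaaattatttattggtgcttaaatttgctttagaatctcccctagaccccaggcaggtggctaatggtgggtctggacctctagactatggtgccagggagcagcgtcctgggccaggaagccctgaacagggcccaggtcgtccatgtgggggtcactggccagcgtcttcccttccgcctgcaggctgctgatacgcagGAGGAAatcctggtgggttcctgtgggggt
GAGGAA was found 3 times before Mrc1 (on the strand opposite to the one printed), 1 time before Stab1 and in no place before Cd209a. It was also found 1 time before Marco, which stayed at or near 0 counts, and it is present in 28.3% of all 32851 windows. The STAT6 type motif TTCNNNNGAA, present in 6.95% of windows, was matched only in the window of Cd36, after the RefSeq start. The other STAT spacing TTCNNNGAA (8.3% of windows) had no match among the 5 genes. The nuclear receptor motif AGGTCA (16.3% of windows) was matched only before the RefSeq start of Cd36. All motifs were searched on both strands, and a match is a string of letters, not a measured site.

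The libraries held 29838316 to 41554249 estimated counts, at which 3 counts correspond to 0.0721 to 0.101 CPM (counts scaled to the size of each library, the level used here for a single gene). Marco did not pass the filter on low counts, so 7 of the 8 receptors were among the 17131 genes tested. A gene was called when its adjusted p (edgeR quasi-likelihood test, Benjamini-Hochberg over all genes tested) was under 0.05. Some libraries stood apart from their groups. In the mouse of MSCs at 3 wpi numbered 5, Mrc1, Clec10a, Msr1, Stab1, Lyve1 and Cd209a all had the highest level of the group, and its pan-macrophage list (12 general macrophage genes such as Adgre1 and Csf1r) stood at a mean log2 CPM of 4.28 against a group median of 3.65. In PBS mouse 2 at 1 wpi, Msr1, Cd36, Stab1, Lyve1 and Cd209a were the highest of the group, and the main results that turn on either mouse are given with and without it.

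**Figure D1:**
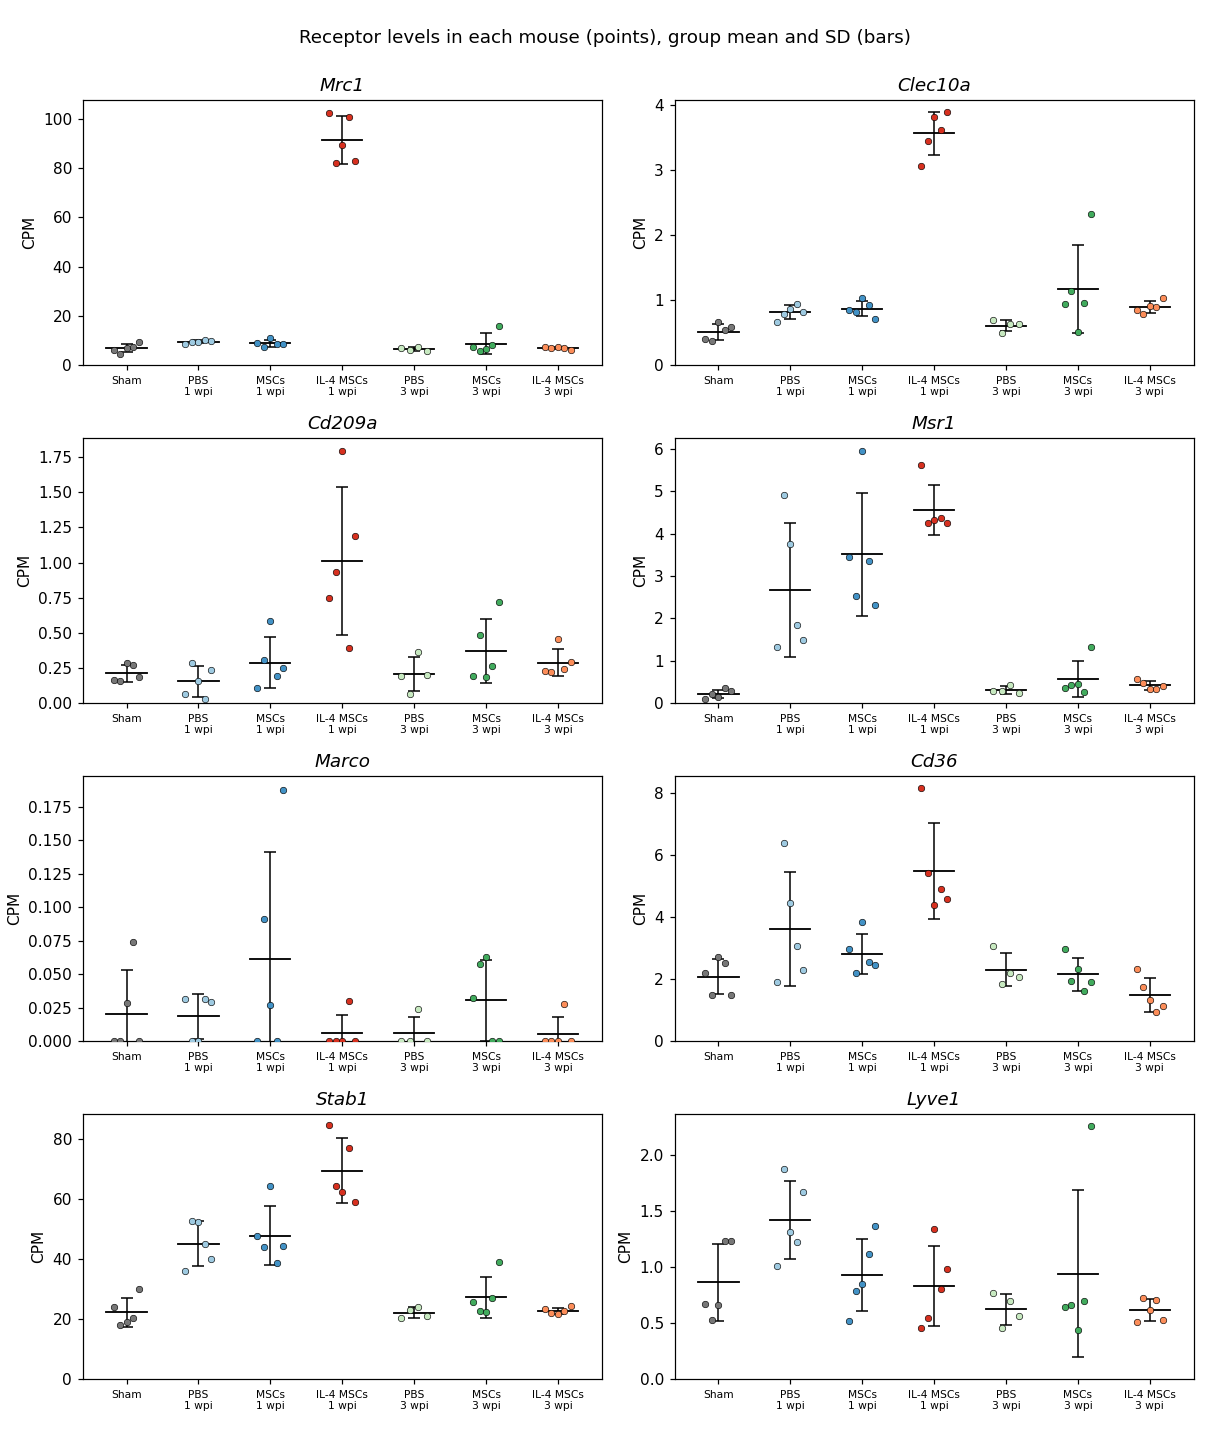
Level of each receptor (y axis, CPM, linear from 0) in each mouse (points) of the 7 groups (x axis), with the group mean and SD as bars, which are clipped at 0 for Marco. Mrc1 and Clec10a in the 5 IL-4 MSC mice at 1 wpi stood above every mouse of the other groups, Msr1 and Stab1 rose in all injured groups at 1 wpi, and Marco stayed at or near 0.

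Mrc1 had the largest log2 fold change of the 7 tested receptors in IL-4 MSC mice at 1 wpi against PBS and against MSCs, while against sham that of Msr1 was larger. Its level in the 5 IL-4 MSC mice at 1 wpi was 103, 81.9, 89.4, 101 and 82.9 CPM, from 2854 to 3360 counts. In the PBS mice at 1 wpi it was 8.72, 9.42, 9.29, 10.02 and 9.97 CPM, and in the mice given naive MSCs 8.81, 7.22, 11.02, 8.47 and 8.58 CPM. The lowest IL-4 MSC mouse was far above the highest mouse of any other group. Sham mice had 6.17, 4.67, 6.87, 7.33 and 9.48 CPM, so that Mrc1 in PBS and MSC mice overlapped with sham. Mean CPM in IL-4 MSC mice was 9.65 times that of PBS mice, 10.4 times that of MSC mice and 13.2 times that of sham mice. The edgeR log2 fold changes were 3.27 ± 0.18 (SE) against PBS, 3.37 ± 0.19 against MSCs and 3.72 ± 0.19 against sham, with adjusted p of 8.4e-14, 5.4e-14 and 2.4e-15. In bulk tissue more cells of a type and more RNA per cell cannot be told apart.

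In that comparison of IL-4 MSCs with PBS at 1 wpi, 4 of the 7 tested receptors were higher (Mrc1, Clec10a, Cd209a and Stab1) and none was lower, where 11.1% of all tested genes were called higher. For Cd209a, 5 of 5 IL-4 MSC mice at 1 wpi were over the limit of the filter on low counts. In any other group at most 2 mice were over it. The calls of Cd209a thus lean on the group where it was high. They are not read as separate support, here and in every result below that holds Cd209a. Without PBS mouse 2 the count was 6, with Msr1 and Cd36 added, and limma-voom called these 6 with all mice kept (adjusted p = 0.0099 for Msr1 and 0.045 for Cd36). The share of 11.1% is that of the main fit alone. The rise from 4 to 6 is therefore not read as a result about these receptors. DESeq2 called 4, and all 7 had an unadjusted p under 0.05 in edgeR, Lyve1 in the lower direction. Against naive MSCs 5 of 7 were higher, the same 4 and Cd36, where 7.65% of all tested genes were called higher. The comparisons share the IL-4 MSC mice and are therefore not independent. The median log2 fold change of the 7 was 0.76 against PBS and 0.96 against MSCs, where the median over all tested genes was -0.0042 and -0.0081.

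Clec10a, another C-type lectin, was also highest in IL-4 MSC mice. The IL-4 MSC mice at 1 wpi had 3.07, 3.45, 3.81, 3.63 and 3.89 CPM. PBS mice had 0.666, 0.793, 0.867, 0.942 and 0.821 CPM, and MSC mice 0.849, 0.82, 1.04, 0.924 and 0.717 CPM. Every IL-4 MSC mouse was above all of these. Sham mice had 0.403, 0.371, 0.659, 0.541 and 0.587 CPM, below every mouse of the 3 injured groups at 1 wpi. The log2 fold change was 2.12 ± 0.22 against PBS (adjusted p = 6.7e-09, edgeR) and 2.03 ± 0.21 against MSCs (adjusted p = 2.1e-08, edgeR). In the GENCODE vM21 transcripts, 14.7% of the 31-base words of Clec10a were shared with other genes, most of them with its neighbour Mgl2, another galactose-type lectin. The counts of Clec10a were not whole in any of the 34 libraries (tolerance 0.01), so part of its reads had been divided between genes. Mgl2 itself ranged from 5.03 to 7.9 CPM in IL-4 MSC mice and from 0.352 to 0.471 CPM in PBS mice at 1 wpi, with a log2 fold change of 3.98 ± 0.23 (adjusted p = 4.5e-14, edgeR). Both genes were higher, and how reads split between them is uncertain. For Mrc1, Lyve1, Cd36, Marco and Cd209a no such word was shared, for Msr1 0.0493% and for Stab1 1.02%. The gene that shared most words with Stab1 was Nt5dc2. Counts of Stab1 were not whole in 22 of the 34 libraries and those of Msr1 in 1, so part of their reads had been divided there too.

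Cd209a was rare, and its IL-4 MSC mice varied widely. At 1 wpi they had 0.751, 0.932, 1.79, 0.39 and 1.19 CPM, from 13 to 64 counts. PBS mice had 0.0634, 0.288, 0.161, 0.0314 and 0.235 CPM and MSC mice 0.109, 0.304, 0.587, 0.191 and 0.25 CPM. The IL-4 MSC mice lay above all PBS mice but overlapped with the MSC mice through the one mouse at 0.39 CPM. The log2 fold change was 2.62 ± 0.45 against PBS (adjusted p = 6.6e-05, edgeR) and 1.79 ± 0.42 against MSCs (adjusted p = 0.0034, edgeR). Of the IL-4 MSC mice 5 of 5 were over the limit of the filter on low counts, against at most 2 mice in any other group. The test of Cd209a thus leaned on the group where it was high, and its calls are not read as separate support. Sham mice had 0.155 to 0.286 CPM, and neither PBS nor MSC mice at 1 wpi differed from them by the test.

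Stab1 had a higher level than Mrc1 in all groups but IL-4 MSCs at 1 wpi. Sham mice had 24.1, 18.03, 18.8, 20.5 and 29.9 CPM. PBS mice at 1 wpi had 35.8, 52.7, 52.2, 44.8 and 39.9 CPM and MSC mice 47.7, 43.9, 64.1, 38.7 and 44.3 CPM, all above sham. IL-4 MSC mice had 84.7, 64.2, 62.3, 76.8 and 58.9 CPM, above all PBS mice, while the range overlapped with that of MSCs through one MSC mouse. Stab1 was higher by a log2 fold change of 1.02 ± 0.15 in PBS mice than in sham (adjusted p = 1.6e-05, edgeR) and by 1.10 ± 0.15 in MSC mice than in sham (adjusted p = 3.6e-06, edgeR). The further step to IL-4 MSCs was 0.62 ± 0.15 from PBS (adjusted p = 0.0031, edgeR) and 0.54 ± 0.15 from MSCs (adjusted p = 0.016, edgeR). The step from MSCs missed the threshold in 3 of the alternatives: in a fit of these groups alone (adjusted p = 0.053), without MSC mouse 4 (0.053) and without IL-4 MSC mouse 1 (0.058).

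Msr1 was higher than in sham mice in every injured and injected group at 1 wpi. Sham mice had 0.101, 0.217, 0.143, 0.345 and 0.278 CPM, between 3 and 14 counts. PBS mice at 1 wpi had 1.33, 4.9, 3.76, 1.85 and 1.5 CPM, and MSC mice 3.45, 2.52, 5.95, 3.34 and 2.31 CPM. IL-4 MSC mice had 5.62, 4.25, 4.32, 4.37 and 4.24 CPM, a range that overlapped with both PBS and MSCs. All 15 injured mice at 1 wpi lay above all sham mice. The log2 fold change from sham was 3.58 ± 0.42 for PBS, 3.97 ± 0.41 for MSCs and 4.34 ± 0.41 for IL-4 MSCs, with adjusted p of 3.6e-07, 3.4e-08 and 3.8e-10 by edgeR. Between IL-4 MSCs and PBS the log2 fold change of Msr1 was 0.76 ± 0.31 (adjusted p = 0.089, edgeR), and without PBS mouse 2 it was 1.13 (adjusted p = 0.010). Against MSCs it was 0.37 ± 0.30 (adjusted p = 0.56, edgeR).

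Cd36 was lower in naive MSC mice than in IL-4 MSC mice, and the PBS mice spread over both. IL-4 MSC mice at 1 wpi had 8.16, 5.43, 4.37, 4.88 and 4.59 CPM, and MSC mice 2.96, 2.19, 3.84, 2.55 and 2.46 CPM. These groups did not overlap, with a log2 fold change of 0.96 ± 0.26 (adjusted p = 0.016, edgeR) that fell to 0.79 (adjusted p = 0.074) without IL-4 MSC mouse 1. PBS mice had 1.9, 6.37, 4.43, 3.05 and 2.29 CPM, overlapping with both groups. The log2 fold change against PBS was 0.59 ± 0.26 (adjusted p = 0.12, edgeR), and without PBS mouse 2, at 6.37 CPM, it was 0.93 (adjusted p = 0.010). Sham mice had 2.18, 1.48, 2.72, 2.51 and 1.48 CPM. The difference of PBS from sham, 0.80 ± 0.27, passed narrowly (adjusted p = 0.048, edgeR) and stood at 0.48 (adjusted p = 0.30) without PBS mouse 2 and at 0.46 (adjusted p = 0.44) with the sham mice of week 1 alone.

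Lyve1 did not rise with IL-4 MSCs. PBS mice at 1 wpi had 1.01, 1.88, 1.32, 1.23 and 1.67 CPM, MSC mice 0.52, 0.789, 0.854, 1.11 and 1.37 CPM, and IL-4 MSC mice 0.457, 0.548, 1.35, 0.809 and 0.987 CPM. The groups overlapped with each other and with sham mice, which had 0.671, 0.526, 0.659, 1.23 and 1.24 CPM. The log2 fold change of IL-4 MSCs against PBS was -0.78 ± 0.33 (adjusted p = 0.11, edgeR) and against MSCs -0.15 ± 0.35 (adjusted p = 0.88, edgeR). Marco was at 0 counts in most mice and had more than 3 counts in only 1 of the 34 libraries, an MSC mouse at 1 wpi with 6 counts, or 0.187 CPM. In IL-4 MSC mice at 1 wpi it had 1 count in 1 mouse and 0 in the other 4. Over 15 comparisons the smallest exact permutation p (two-sided) for Marco was 0.167 (adjusted p = 0.83), so no difference was detectable at this depth.

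**Figure D2:**
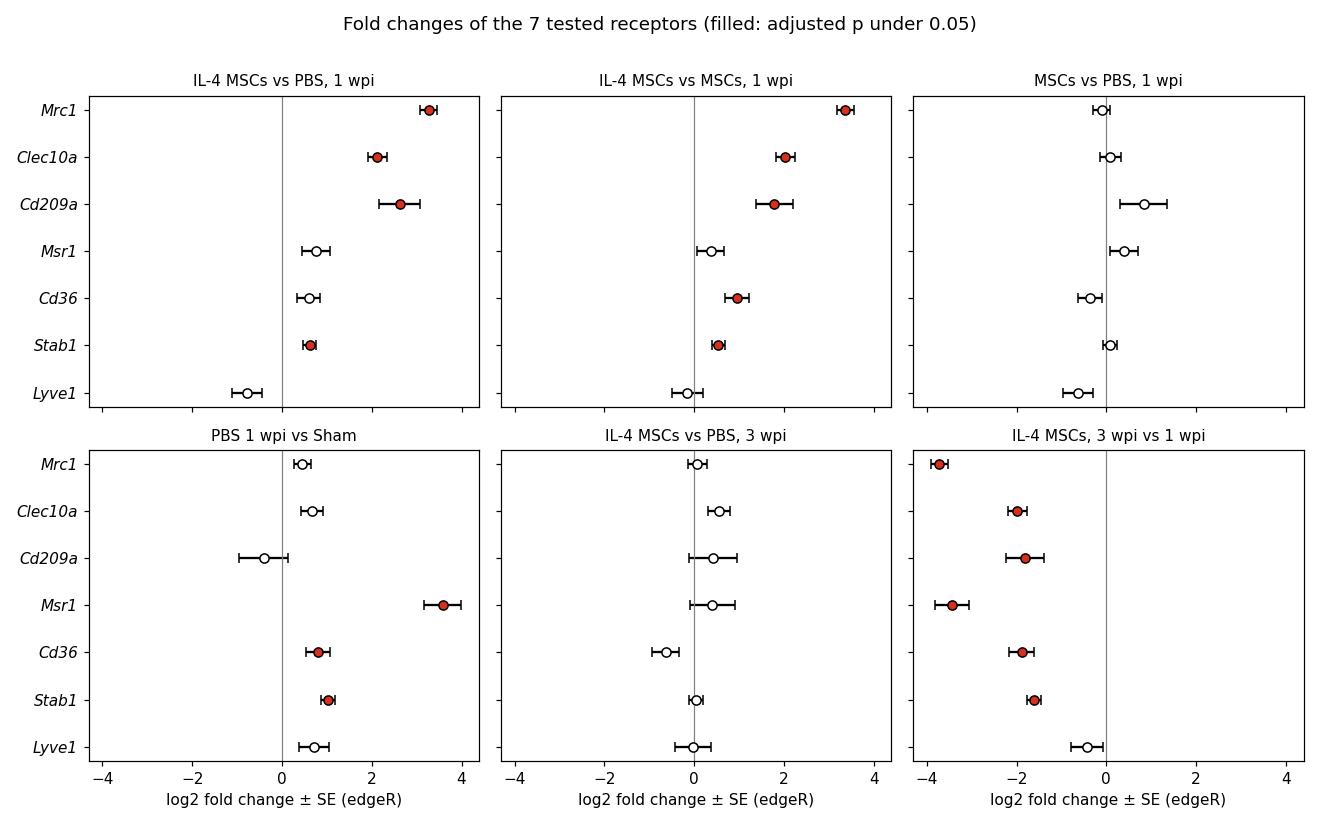
The edgeR log2 fold change of each tested receptor (x axis) with its SE as bar, for 6 comparisons, filled where the adjusted p was under 0.05. At 1 wpi Mrc1, Clec10a and Cd209a differed most between IL-4 MSC mice and PBS or MSC mice. For Cd209a this carries the limit of the filter given in the text. Msr1 and Stab1 differed most between PBS and sham mice, where injury and needle go together. No point is filled for MSCs against PBS at 1 wpi or for IL-4 MSCs against PBS at 3 wpi.

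Set against sham, 6 of 7 receptors were higher in IL-4 MSC mice at 1 wpi, all but Lyve1 (18.4% of all tested genes were called higher). In MSC mice 3 of 7 were higher (Msr1, Stab1 and Clec10a, where 10.9% of genes were called higher), and in PBS mice 3 of 7 (Msr1, Stab1 and Cd36, where 8.7% were called higher). With PBS mouse 2 and mouse 5 of MSCs at 3 wpi both left out, Cd36 was no longer called in PBS mice, while Mrc1 (log2 fold change 0.46, adjusted p = 0.028, edgeR) and Clec10a (0.67, adjusted p = 0.020, edgeR) were. Mrc1 in PBS mice was also called without sham mouse 5 (0.59, adjusted p = 0.046, edgeR). Clec10a in MSC mice, at a log2 fold change of 0.76 ± 0.24 (adjusted p = 0.029, edgeR), was not called against the sham mice of week 1 alone (0.53, adjusted p = 0.27). Between naive MSCs and PBS at 1 wpi, 0 of 7 receptors were called by edgeR, DESeq2 or limma-voom, with 0 at an unadjusted p under 0.05 in edgeR, where 0.0992% of all genes were called. The largest log2 fold changes there were 0.83 ± 0.52 for Cd209a and -0.62 ± 0.33 for Lyve1, both with an adjusted p of 0.996 by edgeR.

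At 3 wpi no receptor was called by edgeR in IL-4 MSC mice against PBS, MSCs or sham. Mrc1 was 7.2, 7.15, 7.22, 6.91 and 6.31 CPM, inside the range of sham. Its log2 fold change against PBS mice at 3 wpi, which had 6.92, 6.32, 7.47 and 5.68 CPM, was 0.07 ± 0.21 (adjusted p = 0.92, edgeR). By edgeR 0 of 7 receptors were called between IL-4 MSCs and PBS (2.9% of all genes, 2 receptors at an unadjusted p under 0.05), and 0 of 7 between IL-4 MSCs and MSCs (3.3% of all genes, 0 receptors at an unadjusted p under 0.05). DESeq2 and limma-voom also called 0 in each. The 2 receptors at an unadjusted p under 0.05 against PBS were Clec10a and Cd36. Clec10a was at 0.79 to 1.03 CPM against 0.491 to 0.689 CPM in PBS mice (log2 fold change 0.55 ± 0.25, adjusted p = 0.26, edgeR). Cd36 went the other way (-0.63 ± 0.30, adjusted p = 0.29, edgeR). Between IL-4 MSCs and sham the count was 0 of 7 by edgeR and limma-voom and 1 by DESeq2, with 1 at an unadjusted p under 0.05 (4.02% of all genes called). That gene was Clec10a, at 0.847, 0.79, 0.911, 0.901 and 1.03 CPM, above all 5 sham mice, with a log2 fold change of 0.80 ± 0.24 (adjusted p = 0.057, edgeR), and it was called with the 2 mice that stood apart left out (0.79, adjusted p = 0.0099). Msr1 was 0.565, 0.474, 0.325, 0.328 and 0.398 CPM, overlapping with sham, with a log2 fold change of 0.90 ± 0.50 (adjusted p = 0.33, edgeR). Cd36 (-0.49 ± 0.29) and Lyve1 (-0.49 ± 0.36) overlapped with sham too, with adjusted p of 0.36 and 0.48 by edgeR. The striatum list (13 genes such as Drd1 and Penk) was also higher in IL-4 MSC mice at 3 wpi, with 12 of 13 genes called higher than in PBS mice and a summed level of 644 to 3561 CPM against 449 to 862 CPM. Its part in these comparisons was not tested beyond a fit with the striatum score as a covariate, in which again 0 receptors were called between IL-4 MSCs and PBS. Sham mice differed in this list by week. Its mean log2 CPM was 3.89 and 3.88 in the sham mice of week 1, and 5.52, 5.67 and 5.81 in those of week 3. All comparisons with the pooled sham mice, also those at 1 wpi, hold this difference.

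The only call at 3 wpi was Clec10a in naive MSC mice against sham, 1 of 7 receptors where 1.13% of genes were called higher. The MSC mice had 0.938, 1.15, 0.503, 0.96 and 2.32 CPM and overlapped with sham. The log2 fold change was 1.19 ± 0.24 (adjusted p = 0.0063, edgeR), and without mouse 5, at 2.32 CPM, it was 0.78 (adjusted p = 0.056). In that mouse Mrc1 was 16.0 CPM against 5.56 to 8.08 in the other 4, Msr1 1.32 CPM against 0.265 to 0.44, and Lyve1 2.26 CPM against 0.44 to 0.695. Its monocyte list stood at a mean log2 CPM of 1.38 against a group median of -0.37. PBS against sham at 3 wpi gave 0 of 7 calls (0.0175% of all genes called), with 0 receptors at an unadjusted p under 0.05, and 0 by DESeq2 and limma-voom. MSCs against PBS at 3 wpi also gave 0 of 7 (0.0759% of all genes called), with 1 receptor, Clec10a, at an unadjusted p under 0.05, and 0 by DESeq2 and limma-voom.

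Between 1 and 3 wpi 6 of 7 receptors fell in IL-4 MSC mice, all but Lyve1, where 16.5% of all tested genes were called lower. Mrc1 fell by 3.72 ± 0.19 on the log2 scale (adjusted p = 7.2e-15, edgeR), Msr1 by 3.43 ± 0.37 (adjusted p = 1.0e-08), Clec10a by 1.99 ± 0.21 (adjusted p = 5.4e-09), Cd36 by 1.88 ± 0.28 (adjusted p = 3.0e-06), Cd209a by 1.82 ± 0.42 (adjusted p = 9.4e-04) and Stab1 by 1.61 ± 0.15 (adjusted p = 1.2e-09). In PBS and in MSC mice Msr1 and Stab1 were called lower, 2 of 7 in each, where 4.86% and 4.91% of genes were called lower. Msr1 fell by 3.08 ± 0.43 in PBS mice and by 2.62 ± 0.36 in MSC mice, and Stab1 by 1.03 ± 0.16 and 0.81 ± 0.15. Lyve1 in PBS mice changed by -1.18 ± 0.37 (adjusted p = 0.055, edgeR), and DESeq2 (adjusted p = 0.034) and limma-voom (0.043) called it. Mrc1 in PBS mice changed by -0.52 ± 0.20 (adjusted p = 0.16, edgeR). For both genes every PBS mouse at 3 wpi was below every PBS mouse at 1 wpi. Both were called in an edgeR fit of these groups alone, Mrc1 with an adjusted p of 0.0055 and Lyve1 of 0.012. They were also called with the 2 mice that stood apart left out (0.032 and 0.037). No share of all genes was set beside these, so they are not read as support for a fall.

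Whether the effect of IL-4 MSCs differed between the 2 times was tested with an interaction term. Against PBS the effect was larger at 1 wpi for 2 of 7 receptors, Mrc1 by 3.20 ± 0.27 (adjusted p = 6.3e-09, edgeR) and Clec10a by 1.57 ± 0.33 (adjusted p = 0.0036, edgeR), where 3.89% of genes were called in that direction. Against naive MSCs it was larger for 5 of 7, Mrc1, Clec10a, Cd209a, Cd36 and Stab1, where 5.88% of genes were called. The call of Cd209a leans on the IL-4 MSC mice at 1 wpi through the filter, as given above, and is not read as separate support. With the striatum score as a covariate Cd209a (2.04, adjusted p = 0.078, edgeR) and Cd36 (1.22, adjusted p = 0.079, edgeR) were not called, which left 3. Cd209a was also not called without MSC mouse 1 of 1 wpi (adjusted p = 0.051), IL-4 MSC mouse 3 of 1 wpi (0.060) or MSC mouse 5 of 3 wpi (0.10). The PBS count was 4 without PBS mouse 2, with Cd36 and Cd209a added, and 4 by DESeq2.

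Levels were compared between receptors only as TPM, a share of the library's transcripts that takes transcript length into account. In sham mice the order by mean TPM was Stab1 (6.69 ± 0.92, SD, n = 5), Mrc1 (2.66 ± 0.71), Cd36 (2.19 ± 0.76), Clec10a (0.953 ± 0.249), Lyve1 (0.64 ± 0.26), Cd209a (0.41 ± 0.22), Msr1 (0.266 ± 0.144) and Marco (0.0237 ± 0.0373). Only Stab1 and Mrc1 did not overlap among neighbours in that order. In PBS mice at 1 wpi Stab1 again led with 12.7 ± 2.5 TPM, clear of Mrc1, Cd36, Msr1 and Clec10a, each of which overlapped with the next. In IL-4 MSC mice at 1 wpi Mrc1 led with 35.9 ± 4.0 TPM, clear of Stab1 with 20.1 ± 2.7 TPM, which was clear of Clec10a (6.20 ± 0.40). Clec10a, Cd36 (6.09 ± 1.53) and Msr1 (5.14 ± 0.71) overlapped with each other in that order. The ratio of Mrc1 to Stab1 TPM was 1.66 to 2.01 in the 5 IL-4 MSC mice at 1 wpi, 0.229 to 0.364 in PBS mice, 0.186 to 0.316 in MSC mice and 0.297 to 0.449 in sham mice. At 3 wpi the IL-4 MSC mice were back at 0.297 to 0.464. Mrc1 made up 47.3 ± 0.9% of the summed TPM of the 8 receptors in IL-4 MSC mice at 1 wpi and 15.1 ± 3.4% in PBS mice.

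**Figure D3:**
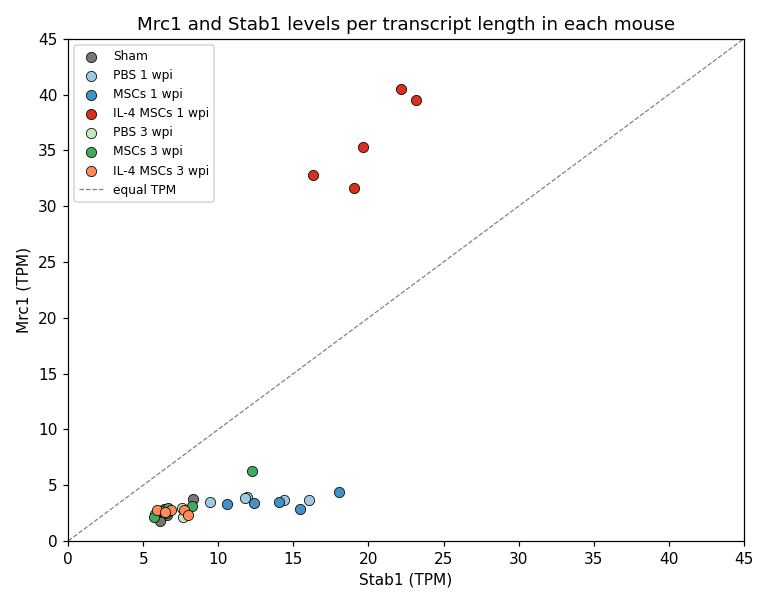
Mrc1 (y axis, TPM) against Stab1 (x axis, TPM) in each of the 34 mice, coloured by group, with a dashed line of equal TPM. The 5 IL-4 MSC mice at 1 wpi lie above the line with ratios of 1.66 to 2.01, and all other mice lie below it.

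General macrophage genes rose in the same samples. Of all tested genes 8.7% were called higher in PBS than in sham mice at 1 wpi, and 11.1% in IL-4 MSC than in PBS mice. Of the 12 pan-macrophage genes 12 were higher in PBS than in sham mice at 1 wpi, and 10 were higher in IL-4 MSC than in PBS mice, led by Lyz2 (log2 fold change 1.67), Adgre1 (1.59), Ptprc (1.10) and Spi1 (1.09). Their summed level was 195 to 295 CPM in sham, 383 to 469 CPM in PBS, 410 to 520 CPM in MSC and 563 to 702 CPM in IL-4 MSC mice at 1 wpi. Each receptor was therefore also given as its log2 CPM minus the mean log2 CPM of this list in the same mouse, and 15 comparisons of 7 receptors were tested by an exact permutation test over mice (two-sided, adjusted over all 105 tests). With 5 mice against 5 the smallest p this allows is 0.00794.

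On this relative scale Mrc1 and Clec10a were still higher in IL-4 MSC mice than in PBS mice at 1 wpi. Mrc1 stood at 1.37 ± 0.19 (SD, n = 5) against -1.10 ± 0.17, a difference of 2.47 (adjusted p = 0.031, exact permutation test, no overlap). Clec10a stood at -3.28 ± 0.25 against -4.55 ± 0.21, a difference of 1.26 (adjusted p = 0.031, exact permutation test, no overlap). Against sham, Mrc1 in IL-4 MSC mice differed by 1.72 without overlap (adjusted p = 0.031, exact permutation test). Clec10a differed from sham by only 0.67, with overlap (adjusted p = 0.069, exact permutation test). Stab1, Msr1 and Cd36 were not apart on this scale, with differences of -0.17 (adjusted p = 0.37), 0.15 (adjusted p = 0.72) and -0.09 (adjusted p = 0.81) by the exact permutation test. Cd209a differed by 1.55 (adjusted p = 0.069, exact permutation test). Lyve1 was lower relative to the list in IL-4 MSC mice, at -5.40 ± 0.69 against -3.82 ± 0.29 in PBS mice, a difference of -1.59 (adjusted p = 0.031, exact permutation test, no overlap). Against naive MSC mice Lyve1 differed by -0.88 with overlap (adjusted p = 0.14, exact permutation test). Naive MSC mice themselves were lower than sham by -1.22 without overlap (adjusted p = 0.031, exact permutation test). With the homeostatic microglia list in place of the pan-macrophage list, whose summed level was 401 to 507 CPM in IL-4 MSC and 401 to 532 CPM in PBS mice, Mrc1, Clec10a, Cd209a and Stab1 were higher in IL-4 MSC mice (adjusted p = 0.035 each, exact permutation test) and Lyve1 differed by -0.74 (adjusted p = 0.16, exact permutation test).

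Between injured and sham mice the receptors moved apart on this scale. Mrc1 relative to the list differed from sham by -0.75 in PBS and by -0.96 in MSC mice at 1 wpi (adjusted p = 0.031 each, exact permutation test) while its own log2 fold change was 0.46 and 0.35. Clec10a differed by -0.60 and -0.61 in the same comparisons (adjusted p = 0.031 each, exact permutation test). Msr1 was higher relative to the list by 1.96 in PBS and by 2.36 in MSC mice (adjusted p = 0.031 each, exact permutation test).

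**Figure D4:**
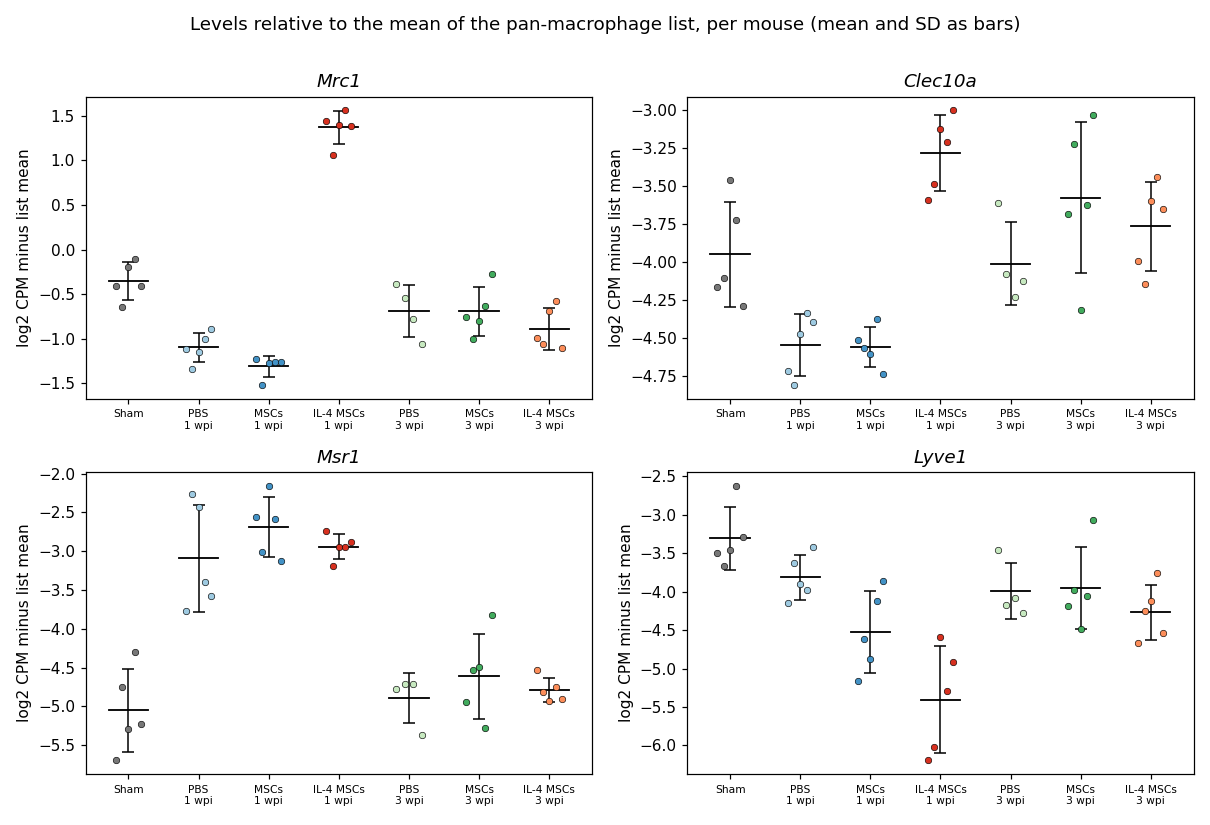
Log2 CPM of Mrc1, Clec10a, Msr1 and Lyve1 minus the mean log2 CPM of the pan-macrophage list (y axis) in each mouse (points) by group (x axis), with mean and SD as bars. Mrc1 in IL-4 MSC mice at 1 wpi has a mean of 1.37, above all other groups, and Lyve1 in the same mice has a mean of -5.40, the lowest of the 7 groups.

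Other receptors of the same kinds moved with IL-4 MSCs at 1 wpi, in part, where 11.1% of all tested genes were called higher than in PBS mice. Of 19 tested other scavenger receptors 6 were higher than in PBS mice and 0 lower: Cd163, the haemoglobin-haptoglobin receptor (2.76 ± 0.20, from 30.8 to 42.5 CPM in IL-4 MSC and from 4.69 to 5.86 CPM in PBS mice), Olr1, a receptor of oxidised low-density lipoprotein (2.32 ± 0.33), Cxcl16, which also binds oxidised lipoprotein (1.51 ± 0.17), Cd68, a lysosomal glycoprotein of macrophages (1.34 ± 0.16), Trem2, a lipid receptor of microglia and macrophages (0.60 ± 0.14), and Scarf1, a scavenger receptor of endothelium and macrophages (0.59 ± 0.11). The median of the 19 was 0.10. Among 7 tested relatives of the mannose receptor, Cd209a and Clec10a, only Mgl2 was called, and the log2 fold change of Mrc2, the mannose receptor relative that takes up collagen, named after its value was seen, was 0.10 ± 0.11. Of 12 tested genes of IL-4 receptor and STAT6 signalling 9 were higher and 0 lower, led by Il2rg, the shared cytokine receptor chain (1.96 ± 0.31), Il4ra, the IL-4 receptor chain (1.62 ± 0.23), the feedback inhibitor Socs1 (1.61 ± 0.20) and the transcription factor Irf4 (1.15 ± 0.24), with a median of 0.60.

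Markers of other cells were counted in the same comparison, where 11.1% of all tested genes were called higher. Lists with a share near that are not read as moving, and the part of these markers in the receptor results was not tested. Of the 10 border-associated macrophage genes 7 were higher in IL-4 MSC than in PBS mice, led by Cbr2 (3.18 ± 0.21), Ms4a7 (3.13 ± 0.25), Cd163 and Siglec1 (2.18 ± 0.20), with a summed level of 243 to 276 CPM against 145 to 165 CPM. Of the 8 monocyte genes 7 were higher, led by Ly6c2 (3.85 ± 0.45), Plac8 (3.04 ± 0.53), Ccr2 (2.23 ± 0.30) and F10 (2.19 ± 0.29), with 70.2 to 82.5 CPM against 36.7 to 47.0 CPM. Of the 8 dendritic cell genes 2 were higher, Itgax (1.42 ± 0.34) and H2-DMb2 (0.86 ± 0.20). Blood vessel endothelium had 7 of 10 genes higher, led by Pecam1 (1.14 ± 0.09), and 368 to 452 CPM against 287 to 315 CPM. Lymphatic endothelium had 2 of 5 tested genes higher, Pdpn (0.62 ± 0.12) and Flt4 (0.53 ± 0.14), while its summed level, 186 to 205 CPM against 176 to 220 CPM, overlapped. Fibroblast and stromal genes had 5 of 10 higher, led by Col3a1 (2.27 ± 0.32). The 5 erythrocyte genes summed to 72.0 to 258 CPM in IL-4 MSC and to 3.58 to 30.6 CPM in PBS mice, with Hba-a2 (4.80 ± 0.70) the single gene called and a median log2 fold change of -1.09. The neutrophil list had 1 of 5 tested genes higher, Retnlg (5.10 ± 0.58), and the homeostatic microglia list 1 of 10 higher, Sall1 (0.23 ± 0.05), and 1 lower, Fcrls (-0.57 ± 0.14). None of 8 choroid plexus genes and none of 13 striatum genes was called at 1 wpi. The striatum list still had a median log2 fold change of 0.92, and its mean log2 CPM, 4.80 to 5.75 in IL-4 MSC and 4.23 to 4.74 in PBS mice, did not overlap. With the striatum score as a covariate Mrc1, Clec10a, Cd209a and Stab1 were again the receptors called higher in IL-4 MSC than in PBS mice. Of the neutrophil markers Ly6g and Elane were never over 3 counts in any library. None of the pan-macrophage, border-associated macrophage, monocyte or endothelial markers was so low throughout.

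The genes most like each receptor were sought among the other tested genes by Pearson r of log2 CPM over the 34 libraries, which is a description, since mice of a group share their treatment. For Mrc1 these were Anpep (r = 0.98), Gm5150 (0.97) and Srgn (0.97), for Clec10a H2-D1 (0.94), H2-K1 (0.94) and Tap2 (0.93), and for Cd209a Siglecg (0.83), Klra8 (0.76) and Gzma (0.75). For Msr1 they were Tlr13 (0.97), Vim (0.97) and Uhrf1 (0.96), for Stab1 S100a11 (0.97), Arpc1b (0.97) and Anxa3 (0.96), for Cd36 Hif1a (0.90), Fabp7 (0.87) and Sdc3 (0.87), and for Lyve1 Errfi1 (0.78), Lrrc8a (0.78) and Mfsd2a (0.77). Among the receptors themselves Msr1 and Stab1 (r = 0.94) and Mrc1 and Clec10a (r = 0.92) were the closest pairs, and Lyve1 was the least like the others, with r from 0.12 to 0.38.

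After the group means were taken out, so that only differences between mice of one group remained, the order was another. Mrc1 then went with F13a1 (r = 0.90) and Cp (0.80), Msr1 with Emp3 (0.86), Lcp2 (0.85) and Cyp4f18 (0.81), and Stab1 with S100a11 (0.84), Cd53 (0.83) and Lcp1 (0.83). Lyve1 went with Gpr182 (0.84), Rnf125 (0.82) and Sult1a1 (0.79), Cd36 with Fabp7 (0.83), Hif1a (0.74) and Cd44 (0.72), Clec10a with B3gnt3 (0.81) and Gzmb (0.75), and Cd209a with Ccr7 (0.64), Smox (0.64) and Gabpb2 (0.62). Among the receptors Mrc1 and Stab1 were the closest pair within groups (r = 0.75), and Mrc1 and Lyve1 stood at 0.63 there against 0.12 over all libraries. All these values include mouse 5 of MSCs at 3 wpi, which was high in most of the receptors.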

How the data were processed

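Tissue around the treatment site of 34 mice in 7 groups was measured by 50 bp paired-end RNA sequencing. Per the labels and the study's methods, the authors trimmed reads with cutadapt 2.4, checked them with FastQC 0.11.8 and made estimated counts and TPM with kallisto 0.46 against protein-coding GENCODE vM23 transcripts (GRCm38), and tested them with sleuth 0.30 in R 3.6.1. The deposited estimated counts per gene need not be whole, since kallisto divides reads shared between genes, and the deposited TPM are scaled for transcript length. The table's columns of the authors' own comparisons (p-values, q-values and log fold changes) were not used. A mouse of PBS at 3 wpi that the authors excluded has no column and was not used here.

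The estimated counts were rounded and tested with edgeR 4.0.16 in R 4.3.3 (TMM, filterByExpr with a minimum count of 10, quasi-likelihood fit with robust shrinkage over all 7 groups, 17131 of 21203 genes, Benjamini-Hochberg adjustment). The test was checked on simulated data. CPM uses TMM-scaled library sizes, and log2 CPM a prior count of 2. Log2 fold changes carry an SE derived from the F statistic. Exact permutation tests were two-sided over mice. DESeq2 1.42.0, limma-voom (limma 3.58.1) and further settings were alternatives. The receptors, marker lists and tests were chosen with earlier results of these data known. All 8 receptors are described. Other genes are named by rule: the 3 most alike by each correlation (1 gene among them is not reported here), up to 4 called genes with the largest change between IL-4 MSCs and PBS at 1 wpi from each list, and every called gene of the other scavenger receptor and mannose receptor family lists. Depth was 29838316 to 41554249 counts per library.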

Additional observations from a re-analysis of the deposited data

Results flagged for a closer look

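In mouse 5 of MSCs at 3 wpi, 4 receptors lay far above the other mice by Dixon's ratio of the gap to the range: Mrc1 (0.760, 16.0 CPM against 8.08 for the next mouse), Msr1 (0.834, 1.32 against 0.440 CPM), Stab1 (0.720, 38.9 against 26.9 CPM) and Lyve1 (0.860, 2.26 against 0.695 CPM). In IL-4 MSC mouse 1 at 1 wpi Msr1 (0.902, 5.62 against 4.37 CPM) and Cd36 (0.722, 8.16 against 5.43 CPM) lay above the rest. Marco reached a ratio of 1.0 in IL-4 MSCs at 1 wpi, PBS at 3 wpi and IL-4 MSCs at 3 wpi, where 1 mouse each had 1 count and the others 0. These are 9 of 56 combinations of receptor and group. Chance flags about 1 in 20 groups of continuous values, a rate that does not hold for the single counts of Marco, and 4 of the others come from 1 mouse, so the number of such combinations is not read against chance.

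The effect of IL-4 MSCs differed between 1 and 3 wpi by the interaction test of edgeR. Against PBS the difference of the effects on the log2 scale was 3.20 for Mrc1 and 1.57 for Clec10a. Against naive MSCs it was 3.70 for Mrc1, 2.42 for Clec10a, 2.18 for Cd209a, 1.49 for Cd36 and 0.80 for Stab1. That of Cd209a was 1.81 (adjusted p = 0.10, edgeR) without mouse 5 of MSCs at 3 wpi. Cd209a was over the limit of the filter in at most 2 mice of any group other than IL-4 MSCs at 1 wpi.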

How the results depend on the processing

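Of 39 receptor calls in 17 comparisons, 32 were kept under every alternative other than a required log2 fold change of at least 1. Those of Cd209a carry the limit of the filter given above. Leaving out 1 mouse at a time, the number of receptors called ranged from 3 to 5 for IL-4 MSCs against MSCs at 1 wpi (3 without IL-4 MSC mouse 1), from 0 to 1 for IL-4 MSCs against sham at 3 wpi (1 without IL-4 MSC mouse 2), from 0 to 1 for MSCs against sham at 3 wpi (0 without MSC mouse 5), from 0 to 1 for MSCs against PBS at 3 wpi (1 without MSC mouse 3) and from 2 to 4 for the interaction against PBS (4 without PBS mouse 2 of 1 wpi). Leaving out 1 mouse also gave 4 to 6 for IL-4 MSCs against PBS at 1 wpi and 4 to 5 for the interaction against MSCs. It gave 2 to 3 for MSCs and for PBS against sham at 1 wpi, and for PBS between 3 and 1 wpi. With a log2 fold change of at least 1 required, the count was 3 for IL-4 MSCs against MSCs at 1 wpi and 1 for MSCs between 3 and 1 wpi. At 1 wpi Stab1 against PBS (0.62), Cd36 in PBS mice against sham (0.80) and Clec10a in MSC mice against sham (0.76) were also lost. Smaller shifts under the settings that follow are not listed. DESeq2 called 1 for IL-4 MSCs against sham at 3 wpi and 4 for the interaction against PBS. With the groups compared alone in the fit, the count was 0 for MSCs against sham at 3 wpi and 4 for PBS between 3 and 1 wpi. With the striatum score as a covariate it was 3 for the interaction against MSCs. With mouse 5 of MSCs at 3 wpi and mouse 2 of PBS at 1 wpi both left out, a setting chosen after seeing the data as was a fit without robust shrinkage, it was 1 for IL-4 MSCs against sham at 3 wpi, 0 for MSCs against sham at 3 wpi, 4 for PBS between 3 and 1 wpi and 5 for the interaction against PBS. Relative to the pan-macrophage list, 27 of 105 tests passed, 44 with the list's median in place of its mean and 22 to 34 leaving out 1 mouse. The share of all tested genes that would pass such tests was not taken. No share of all genes was set beside the counts of these alternatives. Beyond what a setting leaves out, the causes were not tested.

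Directions reversed only among log2 fold changes that were not called: Lyve1 between IL-4 MSCs and sham at 1 wpi (0.0663 with the striatum covariate, -0.29 to 0.11 leaving out 1 mouse), Lyve1 between MSCs and sham at 1 wpi (-0.0523 with sham mice of week 1, -0.0940 to 0.26 leaving out 1 mouse), Lyve1 in IL-4 MSC against MSC mice at 1 wpi (-0.38 to 0.0307) and Cd209a between MSCs and sham at 1 wpi (-0.0277 to 0.64). Replicate numbers did not pair the mice: of 99 same-numbered pairs 24 correlated at over 0.1 (median r = 0.012), and 6 of 34 libraries correlated best with their own number. With the replicate number as a block, 1 receptor call was added, Cd209a in the interaction against PBS (2.20, adjusted p = 0.034, edgeR), and the interaction count there was 3. Marco, and Cd209a and Msr1 in sham mice, are limited by depth.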
